A study of Mus musculus with 8 samples.

Results

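The H2 genes are the genes of the mouse major histocompatibility complex (MHC) on chromosome 17. The members are the genes with a symbol starting with H2- that the deposited peak lists name beside a peak, 31 of the 36297 genes named. By their symbols 19 are class I genes, 11 are class II genes and 1, H2-Ke6, is neither, since it encodes a steroid dehydrogenase that lies among them. The lists come from lung DNA of F1 males of C57BL/6J mice, in which methylated DNA (5mC) was sequenced as MeDIP-seq and hydroxymethylated DNA (5hmC) as hMeDIP-seq. Dams (F0) were given house dust mite (HDM, 100 μg of protein) or its vehicle before mating and through pregnancy and lactation, and the labels call the vehicle both PBS and saline. Their male offspring (F1) were given HDM or saline from 6 weeks of age, with challenges on d14, d18 and d21, which gave 4 groups. They were F0-HDM_F1-HDM (dam and offspring exposed), F0-HDM_F1-Saline (dam alone exposed), F0-Saline_F1-HDM (offspring alone exposed) and F0-Saline_F1-Saline (neither exposed). By the study's protocol, mice of every group had their lung function measured with methacholine on d23, before the lungs were taken. The DNA of a group was a pool of mice from 3 dams and gave 1 library per assay, 8 libraries in all, so no test between groups could be made.

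There are 6 lists, for 3 comparisons in each assay, and each is called here by the exposures of dam and offspring in its first-named library, which was taken from the labels as the library searched for peaks. The HDM/HDM lists set F0-HDM_F1-HDM against F0-Saline_F1-HDM, the HDM/Saline lists set F0-HDM_F1-Saline against F0-Saline_F1-Saline, and the Saline/HDM lists set F0-Saline_F1-HDM against F0-Saline_F1-Saline. For every peak the lists give its coordinates (GRCm38, also called mm10), how well its shape scored, the p of the authors' caller, which goes up to 0.1, and a neighbouring gene to either side with the distance to it, where 0 means that the peak overlaps the gene. The lists go past the stricter false discovery threshold that the methods describe, so a listed peak is not taken as a significant one. They hold no reads and no fold, so the depth behind a peak is unknown, and a listed peak does not say whether a mark was gained or lost. Scores are given beside each other and not tested, because each comes from its own list. Lung is a mixture of cell types, and fewer cells carrying a mark and less of the mark per cell cannot be told apart.

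MHC class I molecules show peptides made inside the cell to CD8+ T cells and natural killer cells, and are built from a heavy chain and beta-2 microglobulin. H2-K1 and H2-D1 encode classical heavy chains, which nearly all cells express, whereas most H2-Q, H2-T and H2-M genes encode nonclassical class I molecules with narrower roles. Class II molecules are pairs of an alpha and a beta chain, H2-A or H2-E in the mouse, that show peptides taken up from outside to CD4+ T cells, on dendritic cells, macrophages and B cells. H2-DM exchanges the peptide held by class II molecules in the endosome, and H2-O restrains H2-DM. In allergic airway disease, class II presentation of allergen by lung dendritic cells is what starts the T helper cell response. Many H2 genes arose by duplication and remain close copies of each other.

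The reference sequence at the peaks on which the results turn is given first, as 151 bp of the plus strand of GRCm38, read 5′ to 3′, with CpG sites, where both marks mainly lie, in capitals. The first pair is from the strongest hMeDIP-seq peak that overlaps H2-Q7, at its exon 3, and the aligned stretch of H2-Q6, shown because the same exon of both genes held peaks.
H2-Q7, peak at exon 3, chr17:35440007-35440157: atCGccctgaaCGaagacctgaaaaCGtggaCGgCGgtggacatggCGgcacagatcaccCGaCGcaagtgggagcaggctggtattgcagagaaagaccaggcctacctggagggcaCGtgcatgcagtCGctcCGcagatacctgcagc
H2-Q6, peak at exon 3, chr17:35425669-35425819: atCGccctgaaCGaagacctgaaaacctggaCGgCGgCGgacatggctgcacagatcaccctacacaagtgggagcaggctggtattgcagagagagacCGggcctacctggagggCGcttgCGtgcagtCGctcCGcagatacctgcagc
The 2 whole HDM/HDM hMeDIP-seq peaks align over 298 bp with 94.3% identity. They hold 23 CpG sites in H2-Q7 and 24 in H2-Q6, of which 16 are at aligned positions. The second pair lies on the 3′ side of H2-Q5 and of H2-Q7, where the 2 peaks with the highest scores within 5000 bp of an H2 gene were found.
3′ side of H2-Q5, chr17:35400696-35400846: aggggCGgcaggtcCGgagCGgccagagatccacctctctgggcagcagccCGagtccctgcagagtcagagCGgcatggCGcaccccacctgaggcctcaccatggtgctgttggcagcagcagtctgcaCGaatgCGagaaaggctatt
3′ side of H2-Q7, chr17:35445891-35446041: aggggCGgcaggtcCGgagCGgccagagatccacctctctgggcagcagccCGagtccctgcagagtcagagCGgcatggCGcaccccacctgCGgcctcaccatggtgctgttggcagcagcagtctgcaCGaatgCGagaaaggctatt
These 2 peaks align over 346 bp with 345 identical bases (99.7%). The third pair is from the 2 copies of the H2-DM beta chain gene, H2-DMb1 and H2-DMb2, whose HDM/HDM hMeDIP-seq peaks align over 336 bp with 335 identical bases.
H2-DMb1, peak at exon 3, chr17:34157411-34157561: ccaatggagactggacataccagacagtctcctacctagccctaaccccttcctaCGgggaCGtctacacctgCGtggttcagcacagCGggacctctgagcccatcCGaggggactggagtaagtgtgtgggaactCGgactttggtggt
H2-DMb2, peak at exon 3, chr17:34148716-34148866: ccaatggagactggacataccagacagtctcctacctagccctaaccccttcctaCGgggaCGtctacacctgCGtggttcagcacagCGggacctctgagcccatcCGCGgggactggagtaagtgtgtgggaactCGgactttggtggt
The last sequences are single: an intron of H2-T24, made up of sequence with many copies in the genome, and the 5′ side of H2-T3, which had the H2 MeDIP-seq peak found in every MeDIP-seq list.
H2-T24 intron, chr17:36013959-36014109: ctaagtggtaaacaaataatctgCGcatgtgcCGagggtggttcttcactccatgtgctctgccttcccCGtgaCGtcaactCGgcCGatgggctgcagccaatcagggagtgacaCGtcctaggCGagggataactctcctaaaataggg
5′ side of H2-T3, chr17:36191643-36191793: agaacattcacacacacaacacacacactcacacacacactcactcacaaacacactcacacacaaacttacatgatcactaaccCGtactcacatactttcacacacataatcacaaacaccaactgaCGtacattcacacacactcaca
The H2-T3 stretch holds 2 CpG sites in long runs of ca dinucleotides, against 11 CpG sites in the stretch at H2-Q7 exon 3.

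Peaks overlapped 10 of the 31 H2 genes in at least 1 list, and lay within 5000 bp of 23. In the HDM/HDM MeDIP-seq list no H2 gene was overlapped (0 of 31), where 7.67% of all genes named were. In the HDM/HDM hMeDIP-seq list 8 of 31 were overlapped (25.8%), where 39.3% of all genes were. The HDM/Saline lists overlapped 6 H2 genes in MeDIP-seq (19.4%, against 34.4% of all genes) and 2 in hMeDIP-seq (6.45%, against 22.2%). The Saline/HDM lists overlapped 4 in MeDIP-seq (12.9%, against 27.9%) and 5 in hMeDIP-seq (16.1%, against 24.3%). The share of H2 genes was thus below that of all genes in each of the 6 lists. H2 genes are shorter than most, with a median span of 4331 bp against 6581 bp for all genes named. Of the 14085 genes with a span in the range of the H2 genes (984 to 19561 bp), 3.06%, 27.5% and 19.6% were overlapped in the HDM/HDM, HDM/Saline and Saline/HDM MeDIP-seq lists, and 35.3%, 16.1% and 20.9% in the hMeDIP-seq lists. The differences from H2 genes were smaller against these genes, and with 31 members 1 gene more or less is 3.23 percentage points.

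**Figure D1:**
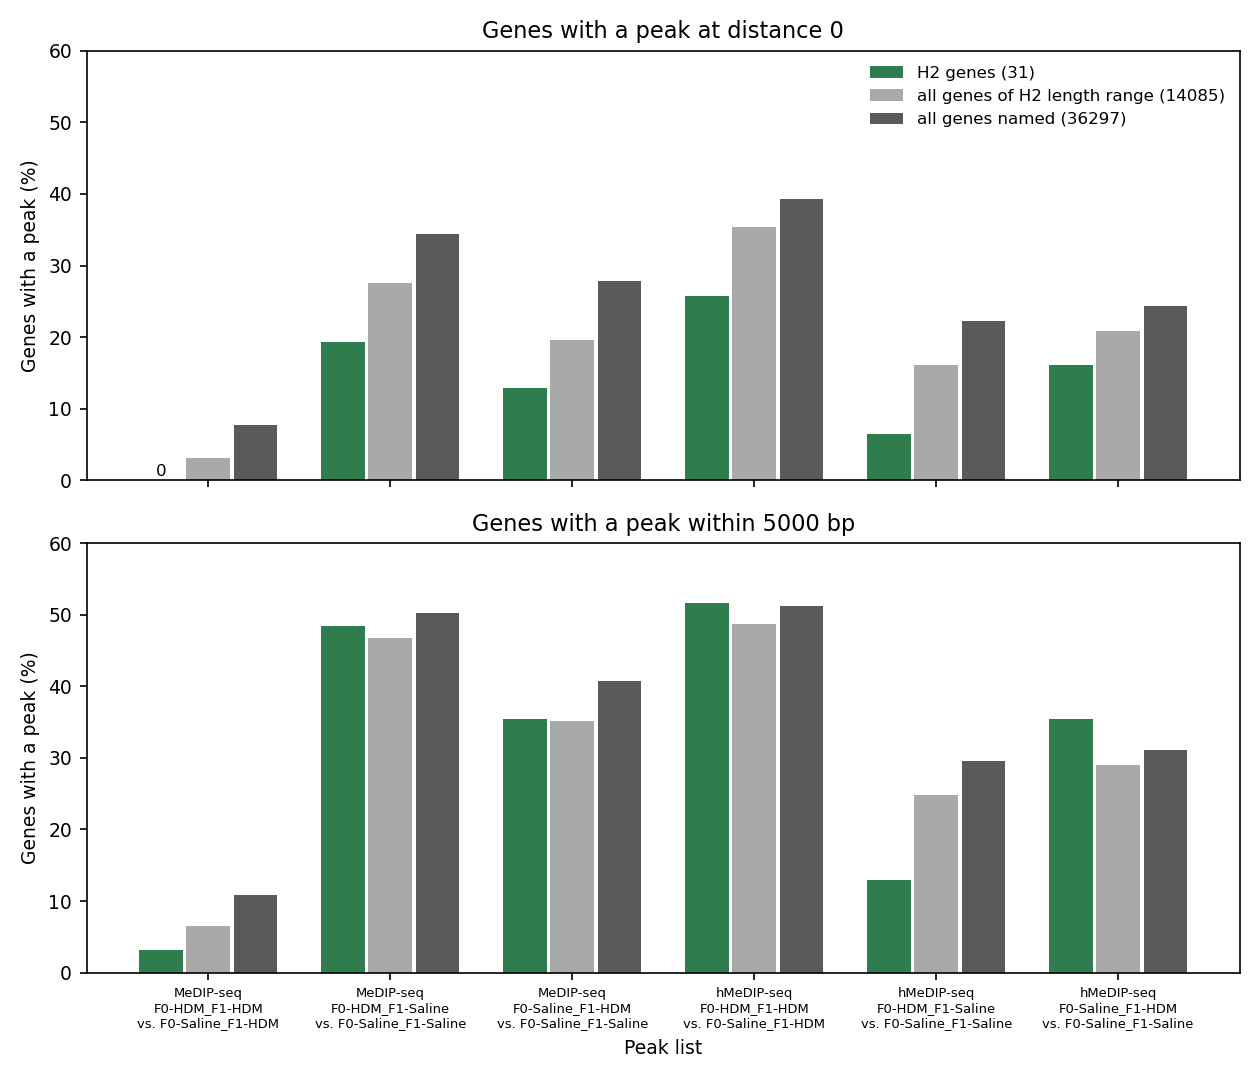
Share of genes (%) with a listed peak at distance 0 (top) and within 5000 bp (bottom) in each of the 6 lists, for the H2 genes (green), all genes with a span in the range of the H2 genes (light grey) and all genes named (dark grey). At distance 0 the green bars, up to 25.8%, are the lowest in every list, and within 5000 bp they are close to the grey bars except in the HDM/HDM MeDIP-seq and HDM/Saline hMeDIP-seq lists.

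Within 5000 bp the share of H2 genes came closer to that of all genes in 4 of the 6 lists, but not in HDM/HDM MeDIP-seq or HDM/Saline hMeDIP-seq. In the HDM/HDM lists 1 H2 gene had a MeDIP-seq peak (3.23%, against 10.9% of all genes) and 16 had an hMeDIP-seq peak (51.6%, against 51.2%). In the HDM/Saline lists the counts were 15 in MeDIP-seq (48.4%, against 50.2%) and 4 in hMeDIP-seq (12.9%, against 29.6%). In the Saline/HDM lists they were 11 in MeDIP-seq (35.5%, against 40.7%) and 11 in hMeDIP-seq (35.5%, against 31.1%). Peaks were not scarce in the part of chromosome 17 that holds the H2 genes. Between the first and the last of them, a stretch of 3.51 Mb from 33974659 to 37483552 on chromosome 17, the lists held 8.83 MeDIP-seq and 72.1 hMeDIP-seq peaks per Mb for HDM/HDM, against 5.03 and 33.7 in the genome. The HDM/Saline lists held 56.7 and 28.2 per Mb there, against 33.4 and 14.5, and the Saline/HDM lists 39.0 and 33.1, against 24.2 and 13.5. Of the 253 HDM/HDM hMeDIP-seq peaks in this stretch, 21 lay within 5000 bp of an H2 gene named. The densities are those of the whole stretch, and were not computed for the surroundings of the H2 genes alone or for stretches of like gene density.

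**Figure D2:**
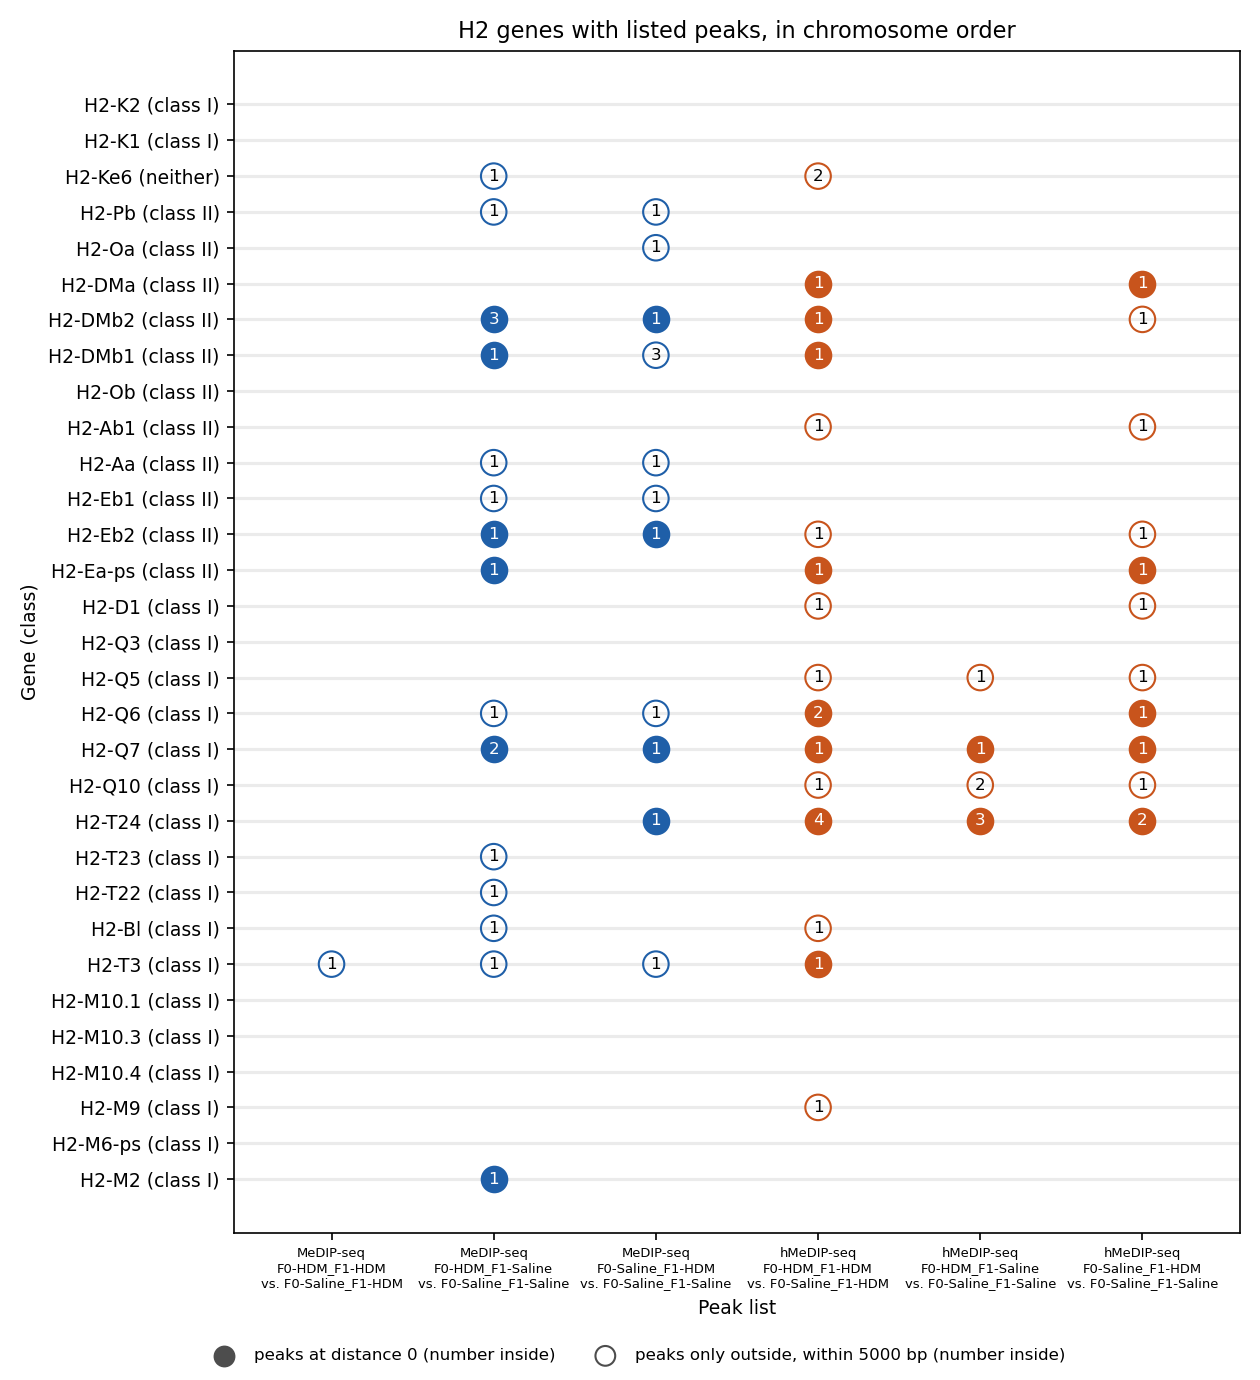
The 31 H2 genes from top to bottom in chromosome order, with class, and the 6 peak lists across. Filled circles give the number of peaks at distance 0, open circles the number outside but within 5000 bp where none was at 0, blue for MeDIP-seq and orange for hMeDIP-seq. H2-Q7 and H2-T24 are filled in all 3 hMeDIP-seq lists, and the HDM/HDM MeDIP-seq column has only the open circle of H2-T3.

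Class I and class II genes were overlapped in both assays. In the HDM/HDM hMeDIP-seq list 4 of 19 class I genes (21.1%) and 4 of 11 class II genes (36.4%) were overlapped. Of all genes named, 39.3% were. In the HDM/Saline MeDIP-seq list the counts were 2 class I and 4 class II genes (10.5% and 36.4%, against 34.4% of all genes). In hMeDIP-seq they were 2 and 0 (10.5% and 0%, against 22.2%). In the Saline/HDM lists they were 2 and 2 in MeDIP-seq (10.5% and 18.2%, against 27.9%), and 3 and 2 in hMeDIP-seq (15.8% and 18.2%, against 24.3%). Within 5000 bp, 7 of 11 class II genes (63.6%) had a MeDIP-seq peak in both the HDM/Saline and the Saline/HDM list. Of the 19 class I genes 7 (36.8%) and 4 (21.1%) did, and of all genes 50.2% and 40.7%. In the HDM/Saline hMeDIP-seq list 4 class I genes (21.1%) and no class II gene had a peak within 5000 bp, against 29.6% of all genes. The HDM/HDM MeDIP-seq list likewise had no class II gene there, with 1 class I gene (5.26%, against 10.9% of all genes). With 1 library per group, the difference between the classes was not tested, and gene span was not matched between them.

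Among the class I genes, the H2-Q genes had the highest-scoring peaks within 5000 bp. H2-Q7 (35439155 to 35443773, plus strand) encodes a Qa-2 antigen, a class I molecule that can be anchored to the membrane by a lipid. Its exon 3, which encodes part of the peptide groove, was the H2 place listed most often, with a peak in 4 lists. The hMeDIP-seq peak there ran from 35439909 to 35440251 in the HDM/HDM list (score 3.47, p of the authors' caller 0.00026). It had a score of 1.93 in the HDM/Saline list and of 2.02 in the Saline/HDM list. A MeDIP-seq peak of the HDM/Saline list covered the same exon (35439880 to 35440257, score 1.74). H2-Q7 also had MeDIP-seq peaks further on, at a non-coding exon of an annotated transcript, in the HDM/Saline list (35440817 to 35441183, score 2.12) and the Saline/HDM list (score 1.65). Of the 51-bp windows of these MeDIP-seq peaks 64.7% and 67.1% have other copies in the genome. The RefSeq genome masks 73.0% and 74.4% of their bases as repeats, and from which copies the reads came was not tested. H2-Q7 was thus overlapped by peaks of both assays in the HDM/Saline and in the Saline/HDM comparison, while the HDM/HDM MeDIP-seq list held no peak within 5000 bp of it. Of the 51-bp windows of the HDM/HDM exon 3 peak 30.7% have another exact copy in the genome, mostly in H2-Q5, so that single reads there fit that gene as well. For the exon 3 hMeDIP-seq peaks of HDM/Saline and Saline/HDM the share was 40.2% and 49.7%, and for the HDM/Saline MeDIP-seq peak 36.3%.

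H2-Q6 (35424850 to 35430055), the other Qa-2 gene among the members, had hMeDIP-seq peaks over the same exon in the HDM/HDM list (35425600 to 35425897, score 1.63) and the Saline/HDM list (score 1.47). The centres of the HDM/HDM peaks lie 903 bp from the start of H2-Q6 and 927 bp from that of H2-Q7, which is the position of the aligned sequences above. The HDM/HDM peak of H2-Q6 has 8.05 CpG per 100 bp, against 3.70 for the median peak of its list. Of its windows 12.9% have another copy, and of those of the Saline/HDM peak 31.9%. A further HDM/HDM hMeDIP-seq peak touched the 3′ end of H2-Q6 (35429929 to 35430273, score 1.83). Of the windows of this further peak 67.1% have other copies, and 81.7% of its bases are masked as repeats. MeDIP-seq peaks lay 1961 and 1991 bp past that end in the HDM/Saline (score 2.01) and Saline/HDM list (score 1.90).

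On the 3′ side of H2-Q5, annotated as a polymorphic pseudogene, an hMeDIP-seq peak at 2785 bp from the gene had the highest score of any peak within 5000 bp of an H2 gene (35400586 to 35400941 in the HDM/HDM list, score 4.92, p of the authors' caller 4.4e-07). It ranked at 816 of the 89177 peaks of that list. The same place had a score of 2.21 in the HDM/Saline list and of 1.74 in the Saline/HDM list. The counterpart 2008 bp past H2-Q7 (35445782 to 35446127) had a score of 4.37 in the HDM/HDM list and of 2.90 in the HDM/Saline list, and no peak is listed there for Saline/HDM. Of the windows of the HDM/HDM peak beside H2-Q5, 83.3% have another copy and all of these have it beside H2-Q7, and of those of the peak beside H2-Q7 82.8% have one beside H2-Q5. A single read inside such a window fits both places, and whether the 2 peaks are separate signals was not tested. H2-Q10 (35470089 to 35474563), which encodes a secreted class I molecule made mainly in liver, was overlapped by no peak. A place 4016 to 4543 bp past it had a peak in each hMeDIP-seq list, with a score of 2.47 in HDM/HDM, of 1.44 and 1.31 for 2 adjoining peaks in HDM/Saline, and of 3.21 in Saline/HDM. This place is CpG-dense (5.13 to 8.60 per 100 bp), and 94.3 to 100% of its windows have other copies in the genome. The pseudogene H2-Q3 had no peak within 5000 bp, the nearest at 7377 bp.

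**Figure D3:**
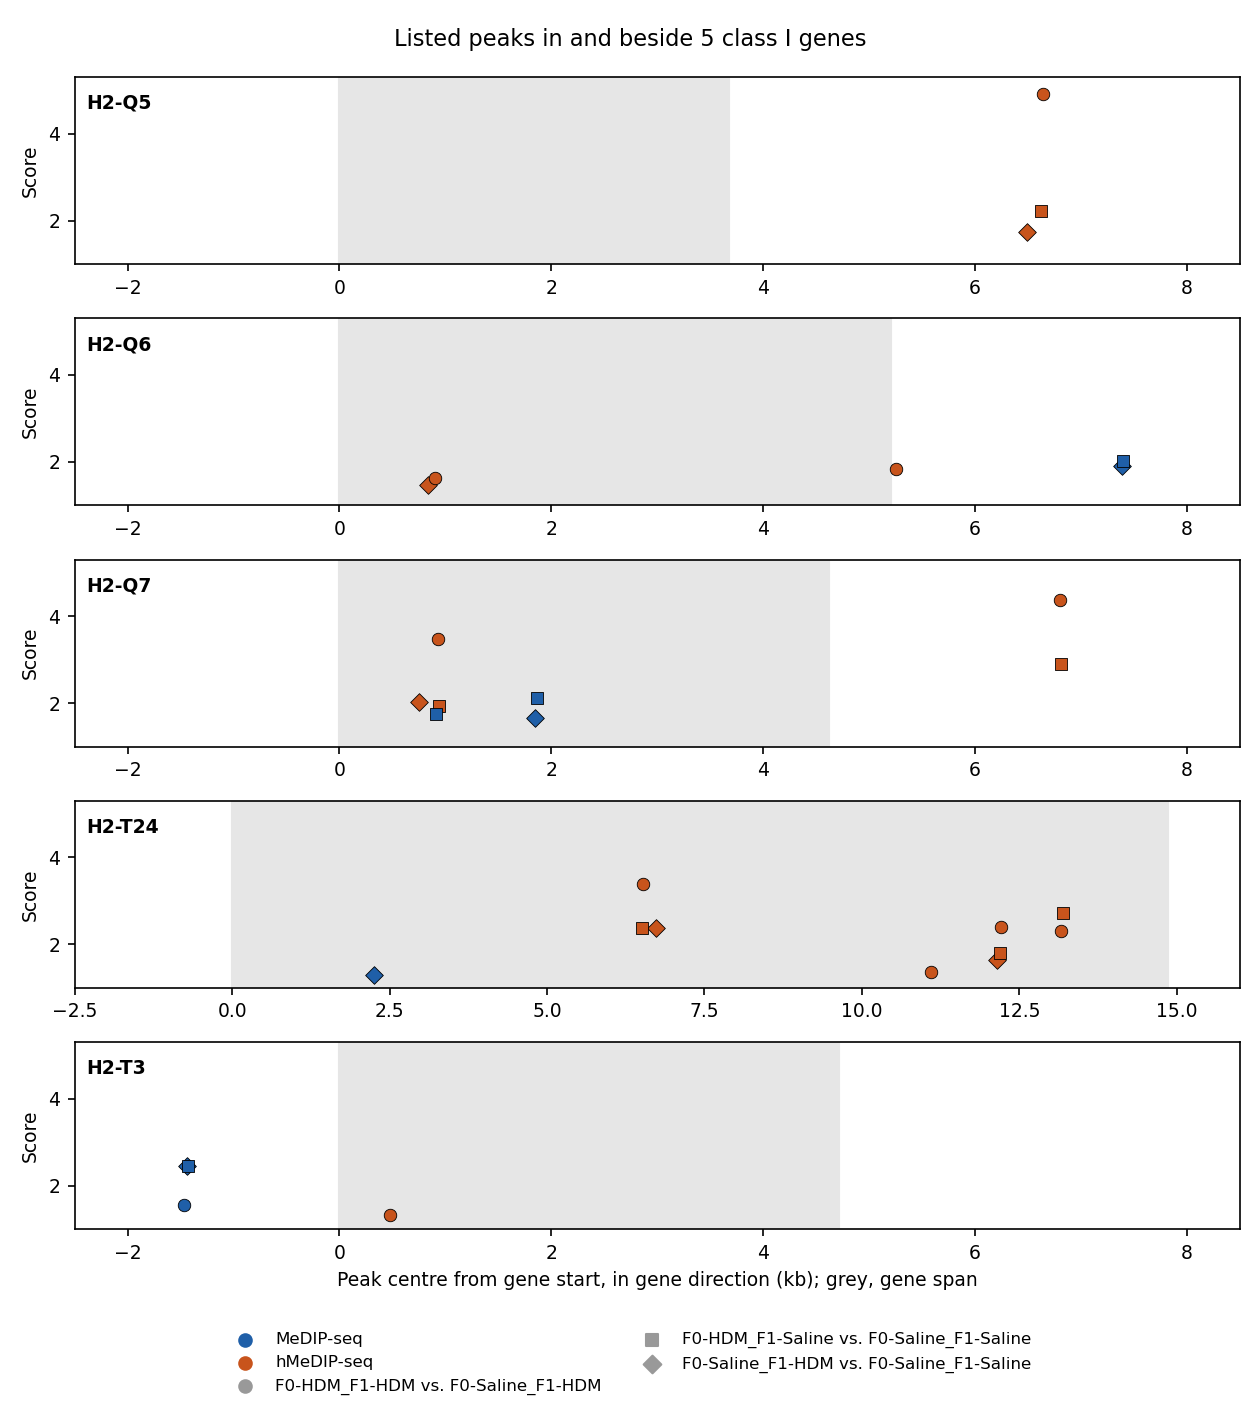
Position of the centre of each listed peak from the gene start in kb, in the direction of the gene, against its shape score, for H2-Q5, H2-Q6, H2-Q7, H2-T24 and H2-T3. Grey marks the gene span, colours the assay and symbols the comparison, and the hMeDIP-seq peaks of H2-Q6 and H2-Q7 at exon 3 sit 755 to 937 bp from the gene start, and those on the 3′ side of H2-Q5 and H2-Q7 at 6490 to 6815 bp.

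Of the H2-T genes, H2-T24 (36005695 to 36020560, minus strand), a class I gene whose role is little known, held the most hMeDIP-seq peaks. It was overlapped by 4 in the HDM/HDM list, 3 in the HDM/Saline list and 2 in the Saline/HDM list. The strongest, from 36013863 to 36014222 in the HDM/HDM list (score 3.39, p of the authors' caller 0.000349), had counterparts with a score of 2.37 in both other lists. All 9 lay in introns, and all lie in sequence that the RefSeq genome masks as repeats (95.4 to 100% of their bases). Of their 51-bp windows 94.2 to 100% have other copies, and the median number of copies ranged from 227 to 678. Their place on chromosome 17 is that given by the read mapping, and from which copies the reads came was not tested. The lists name A930015D03Rik at distance 0 for these peaks as well. A weak MeDIP-seq peak lay in another intron, in single-copy sequence, in the Saline/HDM list (36018138 to 36018508, score 1.30).

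H2-T3 (36185572 to 36190287, minus strand) encodes the thymus leukaemia antigen, a class I molecule of thymus and intestine that binds CD8 alpha. It had the only MeDIP-seq place of the H2 genes with a peak in all 3 MeDIP-seq lists, 1233 to 1244 bp before the gene start. The score was 1.55 in the HDM/HDM list (36191521 to 36191957), 2.46 in the HDM/Saline list and 2.46 in the Saline/HDM list, and the place is single-copy with 2 CpG sites. An hMeDIP-seq peak covered exon 2 of H2-T3 in the HDM/HDM list (36189641 to 36190001, score 1.33). A MeDIP-seq peak of the HDM/Saline list (36033232 to 36033652, score 1.41) lay 376 bp before H2-T23, which encodes Qa-1, the ligand of the CD94 and NKG2 receptors of natural killer cells. The same peak is 3475 bp past H2-T22, and 91.4% of its windows have another copy, beside the pseudogene H2-T-ps. H2-Bl, also annotated as a polymorphic pseudogene, had a MeDIP-seq peak 1281 bp before it in HDM/Saline (score 1.99) and an hMeDIP-seq peak 3470 bp past it in HDM/HDM (score 2.35).

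The classical class I genes were overlapped by no peak in any list. H2-K1 (33996017 to 34000347) had no peak within 5000 bp either, and the peaks listed for it, all of hMeDIP-seq, lay 20989 to 22627 bp away. H2-D1 (35262730 to 35267499) had a single-copy hMeDIP-seq peak on its 5′ side, 553 bp before the gene in the HDM/HDM list (35261835 to 35262176, score 1.39) and 439 bp before it in the Saline/HDM list (score 1.38). Ranked by score, the first stood at 86.8% and the second at 87.8% of its list, counted from the strongest peak. The pseudogene H2-K2 had its nearest peak at 8535 bp. Among the H2-M genes, H2-M2 had weak MeDIP-seq peaks in the HDM/Saline list, at its 5′ end (37483149 to 37483532, score 1.31) and 4640 bp past it (score 1.33, a repeat, with other copies for 85.2% of its windows). The first was the only peak to touch 1 of the 25 RefSeq promoter windows found for 22 H2 members, each around a transcription start. The window it touched is narrow, from 37483505 to 37483804. The share of promoter windows touched over all genes was not computed, so how H2 promoters stand to others is unknown. H2-M9 had an HDM/HDM hMeDIP-seq peak 1751 bp past it (score 1.36), and H2-M10.1, H2-M10.3, H2-M10.4 and H2-M6-ps had none within 5000 bp. MeDIP-seq peaks with scores of up to 7.03 in Saline/HDM and 5.604 in HDM/HDM are listed beside H2-M10.4, from 12359 bp away.

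The class II genes with overlapping peaks were the H2-DM genes, H2-Eb2 and H2-Ea-ps. H2-DMa (34119541 to 34139101), the alpha chain gene of H2-DM, had an hMeDIP-seq peak at exon 3 in the HDM/HDM list (34137067 to 34137408, score 2.22) and the Saline/HDM list (score 1.73). In the Saline/HDM list a further hMeDIP-seq peak lay between H2-DMa and H2-DMb2, 269 bp past H2-DMa and 3292 bp before H2-DMb2 (34139371 to 34140014, score 1.91). H2-DMb1 (34153072 to 34160230) had a peak in its exon 3 in the HDM/HDM hMeDIP-seq list (34157311 to 34157656, score 1.73) and in the HDM/Saline MeDIP-seq list (34157288 to 34157681, score 1.31). H2-DMb2 (34143307 to 34151555) had an hMeDIP-seq peak that touched its exon 3 in the HDM/HDM list (34148626 to 34148990, score 1.33). In the 2 hMeDIP-seq peaks 82.8% and 74.9% of the windows have another copy, in each case in the other H2-DM beta chain gene. H2-DMb2 held the most MeDIP-seq peaks of any H2 gene, 3 in the HDM/Saline list (scores 1.35, 1.46 and 1.43), of which the second, touching exon 2, recurred in the Saline/HDM list (34147835 to 34148221, score 1.63). Between and beyond the 2 beta chain genes, MeDIP-seq peaks were listed in both the HDM/Saline and the Saline/HDM list 77 and 75 bp past H2-DMb2 (scores 1.42 and 1.51) and 2878 and 2890 bp past H2-DMb1 (scores 1.47 and 1.46).

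Of the genes of the presenting class II molecules, H2-Aa (34282744 to 34287823), the H2-A alpha chain gene, had a MeDIP-seq peak 1576 bp past its 3′ end in the HDM/Saline list (score 1.87) and 1577 bp past it in the Saline/HDM list (34280754 to 34281166, score 1.76). H2-Eb1, the H2-E beta chain gene, likewise had 1 on its 3′ side, at 1048 bp in HDM/Saline (score 1.43) and 1057 bp in Saline/HDM (score 1.53). H2-Eb2, a second beta chain gene of the H2-E group, carried a MeDIP-seq peak within an intron in HDM/Saline (34331596 to 34331974, score 1.66) and Saline/HDM (score 1.56). For H2-Ab1, the H2-A beta chain gene, hMeDIP-seq peaks are listed 4179 bp away in HDM/HDM (34258687 to 34259029, score 2.24) and 4028 bp away in Saline/HDM (score 1.29). In GENCODE vM21 these 2 peaks lie inside H2-Ab1 (34257689 to 34269419), in an intron 1168 and 1030 bp from its start, so that the annotation decides whether the gene counts as overlapped. H2-Ea-ps, the alpha chain gene of H2-E, which is not expressed in mice of the b haplotype such as this strain, had an hMeDIP-seq peak over exon 2 in HDM/HDM (34343609 to 34343928, score 2.22) and Saline/HDM (score 2.24). It had a MeDIP-seq peak touching exon 3 in HDM/Saline (34342706 to 34343089, score 1.45). H2-Oa and H2-Ob, the chains of H2-O, were overlapped by none as listed, although in GENCODE vM21 a Saline/HDM hMeDIP-seq peak (34093689 to 34094439, score 1.31), listed under BC051537, lies inside H2-Oa (34092340 to 34095234). H2-Oa had a MeDIP-seq peak at 4683 bp in Saline/HDM (score 1.51), and the nearest to H2-Ob in any list lay at 5940 bp. Farther out the lists name H2-Ob beside hMeDIP-seq peaks of higher score than any within 5000 bp of an H2 gene, up to 12.1 in HDM/HDM (at 11839 bp), 12.0 in HDM/Saline (at 16509 bp) and 8.63 in Saline/HDM (at 7775 bp). The pseudogene H2-Pb had a MeDIP-seq peak at 1795 bp in HDM/Saline (score 1.48) and at 1772 bp in Saline/HDM (score 1.504). H2-Ke6, of neither class, had a place 757 to 827 bp before it with a MeDIP-seq peak in HDM/Saline (score 1.42) and an hMeDIP-seq peak in HDM/HDM (score 1.38), and another hMeDIP-seq peak at 1927 bp (score 1.45).

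The peaks of the 2 assays differed in CpG content near H2 genes as over whole lists. The hMeDIP-seq peaks within 5000 bp of an H2 gene had a median of 3.76 CpG per 100 bp in HDM/HDM (list median 3.70), 5.19 in HDM/Saline (4.08) and 3.68 in Saline/HDM (3.47). Those of MeDIP-seq had 0.804 in HDM/Saline (list median 1.05) and 0.806 in Saline/HDM (0.985). Of the 12 hMeDIP-seq peaks overlapping H2 genes in HDM/HDM, 7 touched a coding exon, where 48.0% of all gene-overlapping peaks of that list did, and 4 of the other 5 were the repeats in H2-T24. In the Saline/HDM list 4 of 6 did (57.2% over the list), and in the HDM/Saline list 1 of 4 (48.2%). In MeDIP-seq 5 of 9 touched a coding exon in HDM/Saline (16.9%) and 1 of 4 in Saline/HDM (14.9%).

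**Figure D4:**
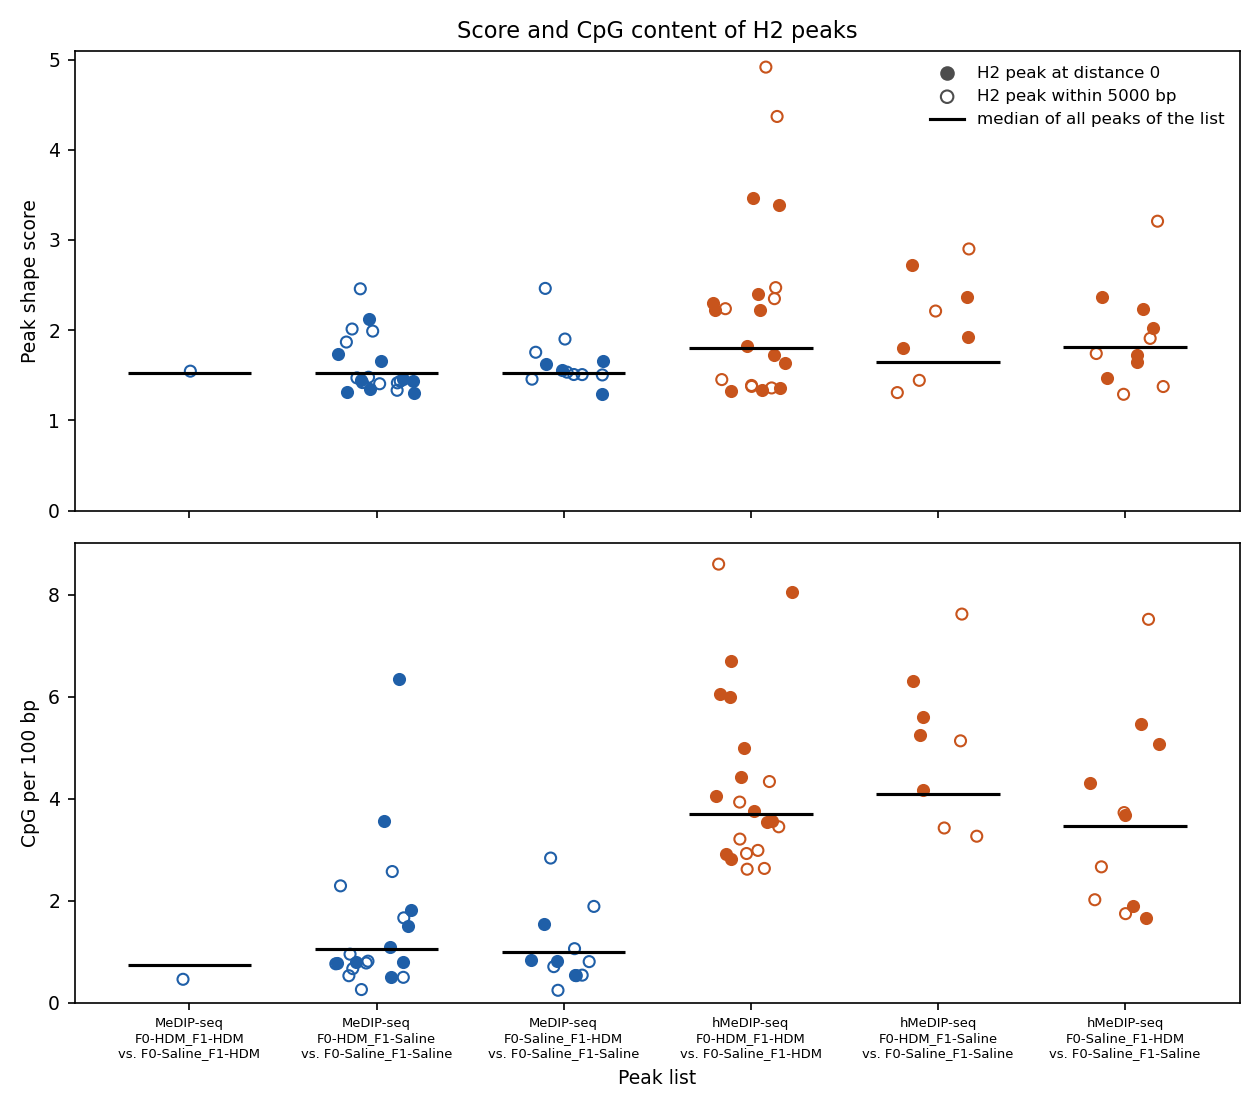
Shape score (top) and CpG sites per 100 bp (bottom) of each peak at distance 0 (filled) or within 5000 bp (open) of an H2 gene, by list, with the median of all peaks of the list as a black line. In the HDM/HDM hMeDIP-seq list 4 peaks have scores from 3.39 to 4.92 while most H2 peaks sit near the line, and hMeDIP-seq peaks (orange) hold more CpG than most MeDIP-seq peaks (blue).

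Of the peaks within 5000 bp of an H2 gene, 4 of 21 in the HDM/HDM hMeDIP-seq list (19.0%, against 7.16% of the whole list) and 1 of 11 in Saline/HDM (9.09%, against 13.0%) had a p of the authors' caller of 0.001 or less, and none in the other lists. At 0.01 or less they were 7 of 21 in HDM/HDM (33.3%, against 23.9%), 3 of 8 in HDM/Saline (37.5%, against 14.1%) and 2 of 11 in Saline/HDM (18.2%, against 28.7%) in hMeDIP-seq. In MeDIP-seq they were 1 of 20 in HDM/Saline (list 8.43%) and 1 of 12 in Saline/HDM (list 9.53%). The 5 peaks at 0.001 or less are those in exon 3 of H2-Q7, in the H2-T24 intron and beside H2-Q5, H2-Q7 and H2-Q10. Those beside H2-Q5 and H2-Q7 are near copies of each other (99.7% identity). In the H2-T24 and H2-Q10 peaks 100% and 97.3% of the windows have other copies. Whether the 5 are separate signals was not tested. The median score of H2 peaks was 2.22 in HDM/HDM hMeDIP-seq (list median 1.7999), 2.07 in HDM/Saline (1.65) and 1.74 in Saline/HDM (1.82). In MeDIP-seq it was 1.45 in HDM/Saline (list median 1.52) and 1.55 in Saline/HDM (1.53). Peaks with other copies for at least 50% of their windows made up 10 of the 21 H2 peaks in HDM/HDM hMeDIP-seq, against 29.5% of every 100th peak of the list. They were 7 of 8 in HDM/Saline hMeDIP-seq (50%) and 4 of 11 in Saline/HDM (41.9%), and in MeDIP-seq 4 of 20 (15.8%) and 1 of 12 (19.2%) for HDM/Saline and Saline/HDM.

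Merged over lists, the 73 H2 peaks within 5000 bp fell at 41 places, 19 with MeDIP-seq only, 19 with hMeDIP-seq only and 3 with both. The 3 were exon 3 of H2-Q7, exon 3 of H2-DMb1 and the 5′ side of H2-Ke6. In exon 3 of H2-DMb1 most windows of the peaks of both assays have a copy in H2-DMb2, and from which copy the reads came was not tested. Of the places 17 had a peak in 1 list, 18 in 2, 5 in 3, 1 in 4 and none in more. These divisions by assay and by number of lists were not made over all places of the lists. They are therefore not read as traits of the H2 genes. The HDM/HDM and HDM/Saline comparisons have no library in common. Of the H2 hMeDIP-seq peaks, 7 of 21 in HDM/HDM (33.3%) shared a base with an HDM/Saline peak, where 40.1% of all 89177 peaks of the list did. Of those in HDM/Saline 7 of 8 (87.5%) shared a base with an HDM/HDM peak, where 92.5% of all 38333 did. With only 21 and 8 H2 peaks, a single peak moves these shares by several percentage points. The differences from the lists were not tested and are not read as a result about the H2 peaks. The Saline/HDM lists share a library with each of the other comparisons, so their values stand above for each gene side by side and are not independent of them.

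Genes that work with the H2 molecules lay under peaks as well. Of the class I loading genes, 12 of 15 are named in a list, and a peak overlapped 1 of them in MeDIP-seq (8.33%, against 7.67% of all genes) and 7 in hMeDIP-seq (58.3%, against 39.3%) for HDM/HDM. The counts were 4 (33.3%, against 34.4%) and 2 (16.7%, against 22.2%) for HDM/Saline, and 2 (16.7%, against 27.9%) and 3 (25%, against 24.3%) for Saline/HDM. Most of these shares were near or below those of all genes, and none was tested. Tap2, a subunit of the peptide transporter, had its strongest hMeDIP-seq peak in HDM/HDM (score 2.78), and so had Nlrc5, the transactivator of class I genes (2.66), and Psmb8, a subunit of the immunoproteasome (2.29). The strongest MeDIP-seq peaks of this group were those of Nlrc5 in HDM/Saline (2.39) and Saline/HDM (2.05). Of the 11 class II loading genes and regulators, 1 was overlapped in MeDIP-seq (9.09%, against 7.67% of all genes) and 8 in hMeDIP-seq (72.7%, against 39.3%) for HDM/HDM. The counts were 4 (36.4%, against 34.4%) and 3 (27.3%, against 22.2%) for HDM/Saline, and 3 (27.3%, against 27.9%) and 3 (27.3%, against 24.3%) for Saline/HDM, all near the shares of all genes. None of these shares was tested, nor were those of the class I-like genes below. Gene span was not matched for any of these groups. Lgmn, the asparagine endopeptidase of the lysosome that cuts antigens, had hMeDIP-seq scores of 6.08 in HDM/HDM, 3.93 in HDM/Saline and 3.64 in Saline/HDM at its strongest peaks. The Saline/HDM peak lay at another place in the gene, and the place of the HDM/HDM and HDM/Saline peaks scored 2.79 in Saline/HDM. In MeDIP-seq the strongest scores of Lgmn were 2.50, 3.66 and 3.19, the first at another place than the others. It was the only gene of these class II genes overlapped in every list. Cd74, the invariant chain itself, had an HDM/HDM hMeDIP-seq peak with a score of 2.69, and March1, the ligase that removes class II molecules from the surface, 1 of 2.50. Ciita, the master regulator of class II genes, had its strongest peak in HDM/Saline MeDIP-seq (1.99). Of the class I-like genes outside the complex, 9 of 10 are named, and 0 in MeDIP-seq (against 7.67% of all genes) and 5 in hMeDIP-seq (55.6%, against 39.3%) were overlapped for HDM/HDM. The counts were 4 (44.4%, against 34.4%) and 2 (22.2%, against 22.2%) for HDM/Saline, and 3 (33.3%, against 27.9%) and 2 (22.2%, against 24.3%) for Saline/HDM. H60b, a ligand of the NKG2D receptor, had the strongest of these, with a score of 3.81 in HDM/HDM hMeDIP-seq. Its strongest hMeDIP-seq peaks in HDM/Saline (2.13) and Saline/HDM (2.75) lay at another place, which scored 3.51 in HDM/HDM. Fcgrt, the neonatal Fc receptor that carries IgG across epithelium, had an HDM/HDM hMeDIP-seq score of 2.07.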

How the data were processed

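MeDIP-seq and hMeDIP-seq lists of F1 male lung were analysed, 1 list per comparison and assay. According to the submitters' notes and the study's methods, DNA of about 200 bp was captured with MethylCap and hMethylCap kits and sequenced, CASAVA 1.8.0, FastQC and Bowtie 0.12.9 were used, and peaks were called in CLC Genomics Workbench on mm10. The methods describe significant peaks at an estimated false discovery rate of 0.001, whereas the listed p reaches 0.1, so the lists hold peaks that may not have met that threshold, and a listed peak is not taken here as a significant one. The deposited peak shape score and p-value are the authors' own, and the deposited distances to genes were used as given. No reads or false discovery rates per peak were used here, so depth and precision of a peak are unknown.

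The genes named are the A, E, DM and O genes of class II, H2-K1 and H2-D1, per list up to 4 H2 genes with the lowest p at distance 0 and up to 2 more outside but within 5000 bp, those at distance 0 in all 3 lists of an assay or in both assays of a comparison, and up to 3 with the most such peaks. From the pathway lists up to 3 genes per list are named. The others are named so that every member is accounted for. The members, gene lists and alternatives were chosen with earlier results of these data known. Spans and exons came from GENCODE vM21, sequence and promoters from RefSeq (GRCm38.p6), and 14 of 45 H2 genes annotated there are not named in a list. Exon numbers are those of the principal transcript, or of another transcript where the principal has no exon at a peak. Copies are exact matches of 51-bp windows, the read length given in the methods, on either strand, without regard to the mate of a read pair. Peak pairs were aligned locally (match 1, mismatch -1, gap opening -4, extension -0.5). The overlap function was checked on simulated data (300 of 300 cases). Biopython 1.88, numba 0.67.0, matplotlib 3.10.9, scipy 1.17.1, numpy 2.4.6 and pandas 2.3.3 on Python 3.11.15 were used. Alternatives were stricter p, other distances, no recurrent places (shared with 3 or more of the 5 other lists), annotated spans and a larger overlap.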

Additional observations from a re-analysis of the deposited data

How the results depend on the processing

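The counts of H2 genes depended most on the threshold of p. At a p of 0.01 or less the genes overlapped by an hMeDIP-seq peak numbered 2 in HDM/HDM (8 in the full list), 1 in HDM/Saline (2) and 1 in Saline/HDM (5), and by a MeDIP-seq peak 0 in HDM/Saline (6) and 0 in Saline/HDM (4). At 0.001 or less they numbered 2, 0 and 0 in hMeDIP-seq and 0 and 0 in MeDIP-seq. Within 5000 bp at 0.001 or less, 3 (of 16), 0 (of 4) and 1 (of 11) were counted in HDM/HDM, HDM/Saline and Saline/HDM hMeDIP-seq, and 0 (of 1), 0 (of 15) and 0 (of 11) in MeDIP-seq. Fewer peaks enter each of these counts by construction. Shares of all genes were not computed at these thresholds or for the alternatives that follow. Whether H2 genes changed more than other genes is therefore not shown. Within 10000 bp the HDM/HDM MeDIP-seq count was 4 (1 within 5000 bp), the HDM/Saline hMeDIP-seq count 8 (4) and the Saline/HDM hMeDIP-seq count 17 (11), and within 2000 bp the last 2 were 2 and 6. Without recurrent places the HDM/Saline hMeDIP-seq count at distance 0 was 1 (2). Counts by annotated span (0 to 9 genes) and shares of peaks found in another list when the shorter peak had to be covered by 50% or more were within 1.5 times the main value. By span 9 H2 genes were overlapped in HDM/HDM hMeDIP-seq and 7 in Saline/HDM. No paired analysis was possible because each group has 1 library per assay, and for the same reason no library could be left out.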

Other observations

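Of the 14 annotated H2 genes that no list names, H2-Pa held an HDM/HDM hMeDIP-seq peak and H2-M10.5-ps1 an HDM/Saline MeDIP-seq peak inside its span, 1 each, which the lists give to other genes. H2-T-ps had 3 hMeDIP-seq peaks within 5000 bp in the HDM/HDM and in the HDM/Saline list and 1 in Saline/HDM. It also had 3 MeDIP-seq peaks in HDM/Saline and 2 in Saline/HDM. H2-Q4 had 2 hMeDIP-seq peaks in HDM/HDM, 1 in HDM/Saline and 1 in Saline/HDM, and 1 MeDIP-seq peak in HDM/Saline. H2-T10 had 1 hMeDIP-seq peak in HDM/HDM and 2 MeDIP-seq peaks in HDM/Saline. By the gene columns, single peaks in the annotated spans of H2-DMa (34131230 to 34131589, score 1.502, HDM/HDM hMeDIP-seq) and H2-Oa (34093689 to 34094439, score 1.31, Saline/HDM hMeDIP-seq) are likewise given to neighbouring genes.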
